A study of Populus sp. cv. 'Okanese' with 18 samples.

Results

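The data describe how the leaf transcriptome of a hybrid poplar differed between the early evening (EE) and the late morning (LM) in trees under moderate drought. The comparison rested on 6 of the 18 libraries in the series, 3 labelled 16 h and 50 % soil water (EE50) and 3 labelled 10 h and 50 % soil water (LM50), with replicate letters A, B and C in each. The libraries were chosen by these labels alone, and the members described are the 23700 genes tested of 31033 genes in the table. Soil water is the gravimetric soil water content (SWCg) as a percentage of field capacity.

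All 6 libraries came from leaves of Populus × ‘Okanese’, grown in a greenhouse under a 15 h photoperiod. The trees, rooted cuttings and so 1 clone, had 42 days with full watering and then 21 days at their water level, and the leaf sampled had developed during those 21 days. The other groups were EE80 and LM80, held at 80 % SWCg as the well-watered control, and EE30 and LM30, held at 30 % SWCg, again with 3 libraries each. Whether every library came from a different tree is not given, and the p-values therefore cover the variation from library to library, which may in part be technical. Each group was sampled at a single hour, so the time at which a transcript peaks cannot be read from these data. All EE libraries carry 1 number tag in the names recorded in the header of the table and all LM libraries another. What this tag marks is not stated, and it cannot be told apart from the time of day.

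Plants keep time with a circadian clock of transcription factors that repress one another in turn through the day, and a large share of the leaf transcriptome follows it together with light, temperature and the use of stored sugars. In Arabidopsis, CCA1 is a repressor that peaks around dawn, the pseudo-response regulators PRR9, PRR7 and PRR5 follow one another from morning to evening and repress CCA1, GI and the F-box protein ZTL act together in the afternoon and evening, and LUX is the DNA-binding subunit of the evening complex. Names are given here only for 13 of the clock genes plotted in the study, those whose identifiers an earlier account of these data printed. These names were taken from that account and were not checked against gene descriptions or sequences. Whether each gene is the counterpart of the Arabidopsis gene of that name was not tested. The study's other clock genes were not used here, and every other gene is given by its Potri identifier with its position in the P. trichocarpa v4.1 genome.

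The total count assigned to genes ranged from 22831424 to 30616906 in EE50 and from 21235789 to 36688270 in LM50. The log2 CPM (counts scaled to library size) of any pair of libraries correlated at 0.985 to 0.990 within a group and at 0.910 to 0.921 between EE50 and LM50, across genes. The first principal component of the 6 libraries held 82.8 % of their variance, and 99.8 % of it lay between the times. EE50 A lay apart from EE50 B and C on the second component, which held 5.47 %.

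More than 1 in 2 genes differed between the times of day. Of the 23700 genes, 6821 were higher in EE50 (28.8 %) and 5718 were lower (24.1 %), which is 52.9 % in all (quasi-likelihood test of edgeR, Benjamini–Hochberg adjusted p below 0.05). The 3 EE50 libraries lay wholly above or wholly below the 3 LM50 libraries for 14881 genes (62.8 %) and for 98.0 % of the DEGs. Most of the changes were modest. The median log2 fold change, EE50 over LM50, was 0.79 among genes that were higher and −0.73 among genes that were lower. A log2 fold change beyond 1 was found for 2630 higher and 2024 lower genes, beyond 2 for 943 and 613 genes, and beyond 5 for 49 and 27 genes. The remaining 11161 genes did not pass the test.

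The balance between the directions moved with the scaling of the libraries. With the TMM factors used throughout, 54.4 % of the DEGs were higher in EE50 and the median log2 fold change of all genes was 0.05. With DESeq2 size factors 50.0 % of the DEGs were higher, and with no factor beyond library size 66.7 % were, with a median of 0.18 over all genes. Shares of genes that were higher or lower are therefore given with the TMM factors unless another scaling is named, and small changes near 0 are relative to them.

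The balance also differed with transcript abundance. The genes were split into 3 classes of equal size by mean log2 CPM. Among the least abundant genes 24.8 % were higher in EE50 and 13.6 % lower. Among the middle genes the values were 34.8 % and 22.5 %. Among the most abundant genes the order turned, with 26.7 % higher and 36.3 % lower. Genes that were higher in EE50 held 34.1 % to 34.4 % of the counts of the tested genes in the EE50 libraries and 16.8 % to 17.6 % in the LM50 libraries. Genes that were lower held 28.7 % to 29.2 % in EE50 and 48.4 % to 50.2 % in LM50, so in the late morning about 1 in 2 counts came from genes that were less abundant in the early evening.

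**Figure D1:**
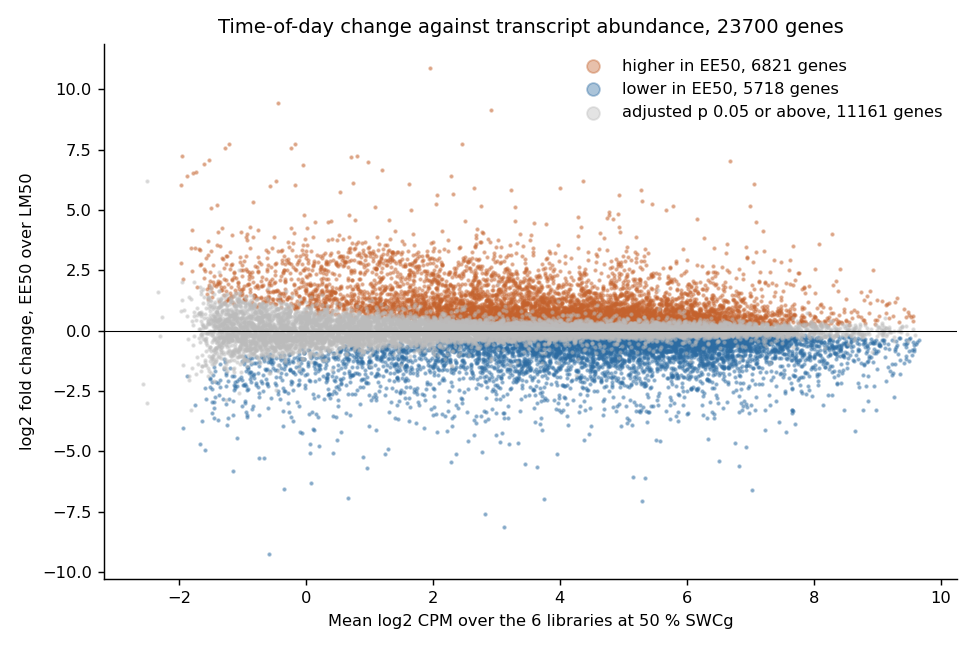
Log2 fold change of EE50 over LM50 (y axis) against the mean log2 CPM of the 6 libraries at 50 % SWCg (x axis), 1 point per gene. The 6821 genes higher in EE50 spread upward over the whole range of abundance, and the 5718 lower genes are densest among abundant transcripts.

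The largest changes are given for DEGs without overlap of the groups and with a mean of at least 10 CPM in the higher one. Some less abundant genes had fitted log2 fold changes of the same size, such as 9.42 in Potri.012G100300 and −9.27 in Potri.008G100500, chosen after their values were seen. The largest rises above this limit were near-complete switches. Potri.015G140800 (chromosome 15, 14748257 to 14750269) had 97.3, 89.7 and 92.7 CPM in EE50, against 0.0817, 0 and 0.0737 CPM in LM50. The LM50 libraries held 1, 0 and 1 counts of this gene, while those of EE50 held 1595, 1504 and 1989. Its fitted log2 fold change of 10.87 depends on the handling of such low counts and was over 1.5 times lower on the linear scale without LM50 B. Against a floor of 3 counts in each library, EE50 was at least 460-fold higher, more than for any other gene at or under that floor in LM50.

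Other genes with large rises were measured above the floor in the late morning. Potri.014G159800 (chromosome 14, 11394051 to 11396839) had 1174, 1310.1 and 1110.4 CPM in EE50 and 14.2, 5.78 and 7.96 CPM in LM50, a log2 fold change of 7.04 ± 0.41 (SE, adjusted p = 4.74e-10, edgeR). It was the most abundant of the 10 genes with the largest rises. Potri.017G079000 (chromosome 17, 8739952 to 8741545) had 167, 183 and 167 CPM in EE50 and 2.29, 1.8 and 3.09 CPM in LM50, and rose by 6.20 ± 0.27. Potri.017G067600 (chromosome 17, 6382505 to 6386139) had 61.5, 70.4 and 74.4 CPM in EE50 and 0.327, 0.237 and 0.442 CPM in LM50, and rose by 7.71 ± 0.28. Its LM50 libraries held 4, 5 and 6 counts, so this SE is likely too small. In each of these genes the lowest EE50 library exceeded the highest LM50 library many times over. Potri.008G135200, a gene named ZTL in the earlier account, had the next largest rise in this set after Potri.015G140800. It is described with the clock genes.

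Of the other 5 genes among the 10 largest rises, Potri.014G159900 averaged 40.3 ± 8.31 CPM in EE50 and 0.5 ± 0.161 CPM in LM50 (SD, n = 3 each). It lies downstream of Potri.014G159800 on the same strand. The LUX gene Potri.001G243600, Potri.009G101400, Potri.002G125900 and Potri.017G141950 averaged 13.6 to 17.9 CPM in EE50 and 0.0834 to 0.178 CPM in LM50. With so few counts in LM50, single libraries moved the fitted values of Potri.001G243600 and Potri.002G125900. Without LM50 B the log2 fold change was 8.51 for Potri.001G243600, against 7.22 with it, and the 7.66 of Potri.002G125900 without LM50 B was over 1.5 times its value with it on the linear scale.

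The largest falls above the same limit of 10 CPM were of the same order. Potri.010G251800 (chromosome 10, 22415299 to 22416526), with a single exon block, had 0.488, 0.537 and 0.373 CPM in EE50, against 124, 134 and 137 CPM in LM50. Its log2 fold change was −8.14 ± 0.24 (adjusted p = 2.56e-13, edgeR). The EE50 libraries held 8, 9 and 8 counts of it, so this SE is likely too small. Potri.014G116800 (chromosome 14, 7845352 to 7847378) had 13.2, 13.1 and 13.5 CPM in EE50 and 1324, 1422 and 1058 CPM in LM50. It was the most abundant of the 10 in the late morning, and fell by 6.58 on the log2 scale (SE 0.18, adjusted p = 1.75e-13).

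Potri.008G059800 on chromosome 8 and Potri.010G199100 on chromosome 10 fell by similar amounts and have like numbers of exon blocks. Potri.008G059800 had 0.305, 0.537 and 0.513 CPM in EE50 and 80.0, 108 and 84.1 CPM in LM50. Potri.010G199100 had 3.35, 4.23 and 2.52 CPM in EE50 and 457, 488 and 402 CPM in LM50. Each has 11 exon blocks, with 1979 bp of exon in Potri.008G059800 and 1970 bp in Potri.010G199100. Their log2 fold changes were −7.61 ± 0.23 and −7.07 ± 0.24. The EE50 libraries held 5, 9 and 11 counts of Potri.008G059800, so its SE is likely too small.

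The other falls among the 10 were steady across libraries with 1 exception. Potri.018G141700 averaged 1.18 ± 0.266 CPM in EE50 and 145 ± 32.8 CPM in LM50, and Potri.015G022100 averaged 4.86 ± 0.739 CPM in EE50 and 335 ± 44.1 CPM in LM50 (SD, n = 3 each). Potri.007G121100 had 2.13, 1.13 and 1.87 CPM in EE50 and 83.7, 99.4 and 79.4 CPM in LM50. Potri.004G162300 and Potri.005G209100 were less abundant, with 0.061 to 0.28 CPM in the EE50 libraries and 10.4 to 12.7 CPM in those of LM50. The exception was Potri.003G167500, with 12.4, 0.656 and 5.04 CPM in EE50 and 156, 604 and 433 CPM in LM50. Its groups did not overlap, but its log2 fold change of −6.05 became −7.05 without EE50 A and −5.53 without EE50 B. Library A was also the highest in EE80 (8.06, 0.747 and 2.87 CPM) and in EE30 (5.85, 0.603 and 0.705 CPM).

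**Figure D2:**
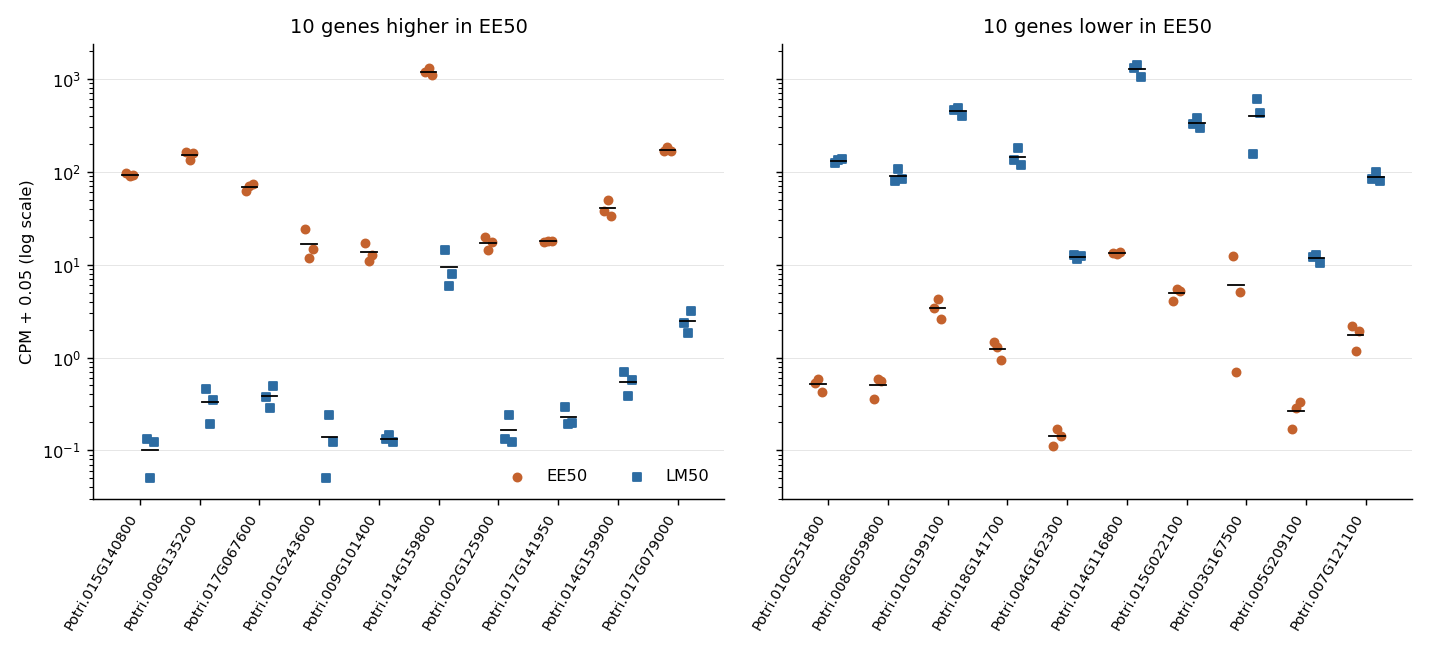
CPM with 0.05 added, on a log axis, of the 10 genes with the largest rise (left) and the 10 with the largest fall (right) in EE50 against LM50, among DEGs with a mean of at least 10 CPM in the higher group. Points are libraries and bars are group means, with EE50 left of LM50 in each gene. The groups stand apart in each gene, and the EE50 libraries spread most in Potri.003G167500.

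A transcript that was at most at the floor of 3 counts in every library of 1 group, with a mean of at least 5 CPM in the other, was found for 8 genes. Of these, 6 were at the floor in LM50. Beside Potri.015G140800 they were Potri.017G141950, at least 88.2-fold higher in EE50, Potri.009G101400, at least 67.1-fold, and Potri.016G131800, Potri.006G144200 and Potri.003G071900, at least 26.4-fold to 29.4-fold. The other 2 were at the floor in EE50, where Potri.004G162300 was at least 72.8-fold lower and Potri.001G060700 at least 37.9-fold lower. The floor of 3 counts corresponded to 0.140 to 0.245 CPM.

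The 13 clock genes used here all passed the test, beside 52.9 % of all genes tested, with 9 higher and 4 lower in EE50. The groups did not overlap in any of the 13, beside 62.8 % of all genes. Their median log2 fold change was 1.97, beside 0.05 over all genes tested. They are not the whole clock and were known as time-of-day genes when chosen, so the counts are a description.

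The CCA1 genes were lower in the early evening. Potri.017G144800 (chromosome 17, 14519739 to 14523284) had 33.9, 47.6 and 41.4 CPM in EE50 and 194, 187 and 189.7 CPM in LM50, and fell by 2.22 on the log2 scale (SE 0.13, adjusted p = 3.54e-10). Potri.004G074300 (chromosome 4, 6180448 to 6184671) had 5.12, 5.55 and 4.24 CPM in EE50 and 91.8, 105 and 92.7 CPM in LM50, and fell by 4.29 (SE 0.14, adjusted p = 7.73e-13). The second CCA1 gene thus fell more steeply than the first. In Arabidopsis both CCA1 and its partner LHY bind the promoters of evening genes and hold them down in the morning.

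Of the PRR genes, the PRR9 pair was lower and the PRR7 and PRR5 pairs were higher. PRR9 Potri.014G106000 (chromosome 14, 7107684 to 7112847) had 48.6, 66.4 and 65.7 CPM in EE50 and 177, 164 and 169 CPM in LM50, a log2 fold change of −1.49 ± 0.11. Its counterpart Potri.002G179800 (chromosome 2, 14117543 to 14123501) had 141, 124 and 125 CPM in EE50 and 161, 145 and 156 CPM in LM50. That change of −0.24 ± 0.09 was the smallest of the 13 and the least certain. Its adjusted p was 0.0262 with all libraries, 0.311 without scaling beyond library size, and between 0.0646 and 0.092 when EE50 B, EE50 C, LM50 A or LM50 C was left out.

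PRR7 Potri.010G215200 (chromosome 10, 20262808 to 20271048) had 221, 262 and 220.0 CPM in EE50 and 45.6, 42.2 and 43.0 CPM in LM50, a log2 fold change of 2.43 ± 0.13. The other PRR7 gene, Potri.008G046200 (chromosome 8, 2674335 to 2683096), had 176, 173 and 180.2 CPM in EE50 and 138, 143 and 128 CPM in LM50, and rose by 0.37 ± 0.07 (adjusted p = 0.000388). The first member of the pair thus carried most of the change. PRR5 Potri.012G005900 (chromosome 12, 173794 to 180376) had 559, 700.4 and 606 CPM in EE50 and 44.3, 27.8 and 34.6 CPM in LM50, a log2 fold change of 4.13 ± 0.23. PRR5 Potri.015G002300 (chromosome 15, 112021 to 117679) had 247, 336 and 324 CPM in EE50 and 105, 55.9 and 70.3 CPM in LM50, a log2 fold change of 1.97 ± 0.23. LM50 A was the highest of the LM50 libraries for both PRR5 genes, and library A was also the highest in LM80 and in LM30.

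GI Potri.005G196700 (chromosome 5, 20340433 to 20351684), which encodes a large scaffold protein that in Arabidopsis binds ZTL in the light, had 462, 448 and 481 CPM in EE50 and 131, 137 and 118 CPM in LM50. It rose by 1.85 ± 0.10 on the log2 scale (adjusted p = 2.82e-10). The genes named ZTL in the earlier account changed far more, and whether they are counterparts of Arabidopsis ZTL was not tested. Potri.008G135200 (chromosome 8, 8997951 to 9001630) had 162, 133 and 158 CPM in EE50 and 0.408, 0.142 and 0.295 CPM in LM50, where its libraries held 5, 3 and 4 counts. Its log2 fold change was 9.16 ± 0.22 (adjusted p = 6.96e-14, edgeR), with an SE that is likely too small for so few LM50 counts. Potri.010G105700 (chromosome 10, 12720705 to 12724718) had 141, 104 and 119.9 CPM in EE50 and 3.02, 1.52 and 1.77 CPM in LM50, a log2 fold change of 5.91 ± 0.25.

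The LUX genes were both higher in the early evening, and 1 of them was near the floor in the late morning. Potri.009G035000 (chromosome 9, 4518234 to 4521566) had 107, 82.1 and 77.1 CPM in EE50 and 4.33, 4.45 and 4.72 CPM in LM50, a log2 fold change of 4.30 ± 0.18. Potri.001G243600 (chromosome 1, 26128861 to 26132400) had 23.8, 11.9 and 14.7 CPM in EE50 and 0, 0.19 and 0.0737 CPM in LM50. EE50 A was the highest evening library for both.

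**Figure D3:**
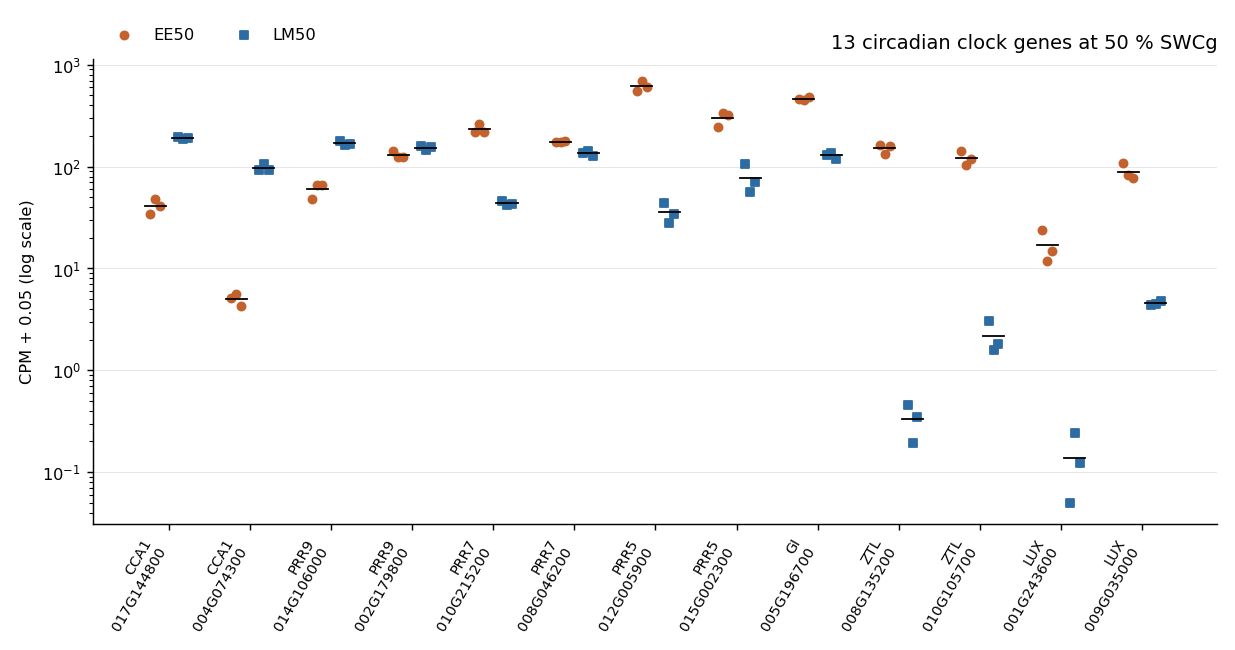
CPM with 0.05 added, on a log axis, of the 13 clock genes, each labelled with its name and the end of its identifier. Points are the 3 libraries of EE50 (left in each gene) and LM50 (right), and bars are means. The CCA1 and PRR9 genes lie lower in EE50 and the other 9 genes lie higher.

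Per kilobase of exon, the order of the clock genes turned over between the times. In EE50 the PRR5 gene Potri.012G005900 stood highest at 156 CPM per kb, ahead of GI at 95.9 and PRR5 Potri.015G002300 at 93.2, and the CCA1 gene Potri.004G074300 stood lowest at 1.26. In LM50 the CCA1 gene Potri.017G144800 stood highest at 81.4 CPM per kb, ahead of PRR9 Potri.014G106000 at 57.4 and Potri.002G179800 at 47.1, and LUX Potri.001G243600 stood lowest at 0.0248.

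Genes that share a clock name did not move in parallel, and the ratio of their counts in a library shifted with the time of day. For the CCA1 genes the log2 ratio of Potri.017G144800 to Potri.004G074300 was 3.04 ± 0.28 in EE50 and 0.98 ± 0.13 in LM50 (SD, n = 3 each). For the PRR9 genes, Potri.014G106000 over Potri.002G179800, it was −1.12 ± 0.36 in EE50 and 0.14 ± 0.03 in LM50. For the PRR7 genes, Potri.010G215200 over Potri.008G046200, it was 0.40 ± 0.17 in EE50 and −1.64 ± 0.10 in LM50. The member with more counts was therefore a different one at each time in the PRR9 and PRR7 pairs. The PRR5 and ZTL pairs turned in the same way. In the PRR5 pair the log2 ratio of Potri.012G005900 to Potri.015G002300 was 1.05 ± 0.14 in EE50 and −1.09 ± 0.13 in LM50. In the ZTL pair the log2 ratio of Potri.008G135200 to Potri.010G105700 was 0.32 ± 0.11 in EE50 and −2.96 ± 0.42 in LM50. In these 5 pairs no EE50 ratio overlapped an LM50 ratio. Reads that align to more than 1 place were left out of the counts, so closely similar members of a pair can lose reads. At the other water levels too, the mean ratio was higher in the early evening for the CCA1, PRR7, PRR5 and ZTL pairs and lower for the PRR9 pair. The PRR7 pair was at 0.34 ± 0.14 in EE80 against −1.67 ± 0.20 in LM80 and 0.32 ± 0.21 in EE30 against −1.56 ± 0.06 in LM30. Late morning ratios varied more between water levels in other pairs. That of PRR9 was 0.07 ± 0.17 in LM80 and 0.44 ± 0.13 in LM30, that of PRR5 was −1.15 ± 0.11 in LM80 and −1.49 ± 0.20 in LM30, and that of ZTL was −3.24 ± 0.97 in LM80 and −2.31 ± 0.59 in LM30. Differences between water levels in these ratios were not tested.

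Below the upper limit of the test, an average log2 CPM of 9, the most abundant transcripts that changed by more than 1 on the log2 scale were the following. Potri.004G155300 (chromosome 4, 17588908 to 17589912) averaged 1245 ± 88.6 CPM in EE50 and 78.6 ± 8.06 CPM in LM50 (SD, n = 3 each), a log2 fold change of 3.99 ± 0.14. It had the highest level per kilobase among the abundant genes named here in EE50, with 1239 CPM per kb. Potri.005G058400, which overlaps an exon of a gene on the other strand, had 1127, 1233 and 1147 CPM in EE50 and 205, 193 and 216 CPM in LM50, a log2 fold change of 2.51 ± 0.10. Strand was not used in counting, so reads over this overlap were left out and its counts may be too low. Potri.005G252600, Potri.002G028700 and Potri.014G143400 were 2.22-fold to 2.58-fold higher in EE50, and Potri.002G028700 too overlaps an exon on the other strand.

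Among abundant transcripts that were lower, Potri.019G056400 (chromosome 19, 9508433 to 9510159) had 84.4, 100.2 and 101 CPM in EE50 and 1791, 1813 and 1542 CPM in LM50, a log2 fold change of −4.17 ± 0.25. Potri.008G130000 had 116, 243 and 143 CPM in EE50 and 1779.6, 1663 and 1405 CPM in LM50, with EE50 B above the other evening libraries. Potri.007G089000 had 206, 254 and 249 CPM in EE50 and 1534, 1968 and 1327 CPM in LM50. These 3 genes were 18.0-fold, 9.66-fold and 6.81-fold lower in EE50. Potri.008G157400 and Potri.006G053000 were 3.48-fold and 2.03-fold lower.

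Above this upper limit, an average over the 18 libraries, lay 226 genes that were examined in a fit with the lower limit only. They were mostly lower in the early evening, with 138 lower, 21 higher and a median log2 fold change of −0.44, and beyond 1 on the log2 scale 50 were lower and 11 higher. Together they held 33.4 % ± 1.03 of all counts in EE50 and 39.9 % ± 0.24 in LM50 (SD, n = 3 each). The genes of this set named next were chosen after their values were seen. Potri.005G078700 (chromosome 5, 5346977 to 5350431) alone held 0.0138, 0.0164 and 0.0159 % of the counts in EE50 and 0.584, 0.634 and 0.526 % in LM50, a log2 fold change of −5.51 ± 0.23. Potri.014G106800 and Potri.002G180800 fell by 6.03 and 5.75 on the log2 scale (SE 0.25 and 0.23). In the other direction, Potri.004G020500 (chromosome 4, 1491008 to 1493835) held 0.559, 0.44 and 0.445 % of the counts in EE50 and 0.00975, 0.00747 and 0.0113 % in LM50, a log2 fold change of 5.39 ± 0.32.

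Steady transcripts were also present. The 5 genes of smallest change among those with a mean above 100 CPM and an SE below 0.1 were Potri.001G173800, Potri.001G029600, Potri.016G121100, Potri.001G359900 and Potri.009G150600, which averaged 115 to 135 CPM in EE50 and 115 to 135 CPM in LM50. Without scaling beyond library size their log2 fold changes were each 0.13. Potri.001G029600 had 117, 117 and 111 CPM in EE50 and 114, 116 and 114 CPM in LM50. The approximate 95 % interval of its log2 fold change ran from −0.13 to 0.13.

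The design also asks whether the time-of-day change under moderate drought differed from that in well-watered and in severely droughted trees. Such a difference was not detected for any single gene. With the time-of-day change at 50 % SWCg set against that at 80 % SWCg, 0 of the 23700 genes were called (0 %), with 1050 genes (4.43 %) at an unadjusted p below 0.05 and a smallest adjusted p of 0.984 (edgeR, quasi-likelihood). Against 30 % SWCg 0 genes were called (0 %), with 1282 genes (5.41 %) at an unadjusted p below 0.05 and a smallest adjusted p of 0.895. DESeq2 called 2 genes against 80 % SWCg and the likelihood ratio test of edgeR with robust dispersion called 11, and against 30 % SWCg both called 0.

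The precision of these differences set what could have been seen. For 73.2 % of the genes the 95 % interval of the difference between 50 and 80 % SWCg lay within −1 and 1 on the log2 scale, and for 72.2 % that between 50 and 30 % SWCg did. Among the DEGs at 50 % SWCg these shares were 81.4 % and 80.7 %. For about 1 in 4 genes the approximate interval thus reached a difference of 2-fold in 1 direction or the other, and the true share may be higher.

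The calls at the 3 water levels overlapped. Of the 12539 DEGs at 50 % SWCg, 10484 were also called at 80 % SWCg, which is 83.6 % of the list at 50 % and 85.4 % of that at 80 %, where 51.8 % of all genes tested were called. With 30 % SWCg it shared 10470 genes, 83.5 % of the list at 50 % and 82.8 % of that at 30 %, where 53.4 % of all genes were called. All 10470 had 1 direction, as did 10482 of the 10484. The comparisons share no library but come from 1 fit. Across the 23700 genes the log2 fold changes at 50 % correlated with those at 80 % at 0.933 and with those at 30 % at 0.923, a description since genes are not independent. Of the 943 genes with a log2 fold change above 2 in EE50, 912 were also called higher in EE80 and 898 in EE30, beside 27.3 % and 28.3 % of all genes. Of the 613 genes below −2, 595 were called lower in EE80 and 588 in EE30, beside 24.5 % and 25.1 % of all genes.

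**Figure D4:**
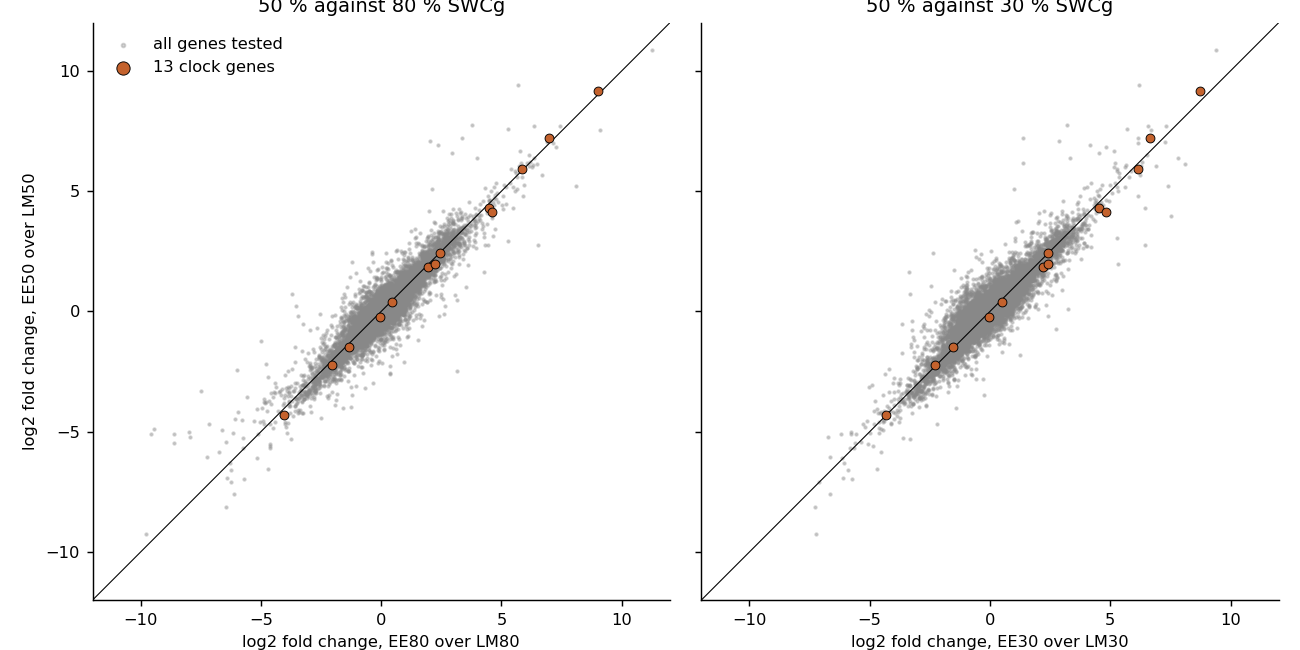
Log2 fold change of EE50 over LM50 (y axes) against that of EE80 over LM80 (left) and EE30 over LM30 (right), 1 point per gene tested with the 13 clock genes in colour. The line marks equal change, and the clock genes lie along it in both panels.

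The clock genes followed the same course at each water level. Their differences between 50 and 80 % SWCg ran from −0.49 to 0.23 on the log2 scale and those between 50 and 30 % SWCg from −0.68 to 0.58. In either, 0 of 13 were called, beside 0 % of all genes tested (edgeR). At an unadjusted p below 0.05 there were, beside 4.43 % and 5.41 % of all genes tested, 0 and 2 clock genes. These were PRR5 Potri.012G005900, which rose by 4.13 at 50 % and by 4.81 at 30 % SWCg (unadjusted p = 0.034, edgeR), and GI Potri.005G196700, whose rise was smaller at 50 % than at 30 % SWCg by 0.35 (unadjusted p = 0.0232, edgeR). Their adjusted p was 0.895. The PRR9 gene Potri.002G179800 was called at 50 % SWCg alone, with log2 fold changes of −0.24 at 50 %, −0.04 at 80 % and −0.03 at 30 % SWCg, but the difference between 50 and 80 % had an adjusted p of 0.984.

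The 10 largest rises and the 10 largest falls were called in the same direction at 80 and 30 % SWCg without exception. Of all genes tested, 27.3 % and 28.3 % were called higher at these levels, and 24.5 % and 25.1 % lower. Other strong changes were also mostly called there. Of the genes with a log2 fold change above 2 at 50 % SWCg, 96.7 % and 95.2 % were called in the same direction. Of those below −2, 97.1 % and 95.9 % were. The 10 rises were 6.20 to 10.87 at 50 %, where the genes were chosen, 5.75 to 11.26 at 80 % and 5.15 to 9.38 at 30 %. The 10 falls were −8.14 to −5.67 at 50 %, −7.25 to −4.61 at 80 % and −7.26 to −5.64 at 30 %.

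DEGs called at 50 % SWCg alone numbered 1042, of which 612 were higher and 430 lower in EE50. Their changes were small, with a median size of 0.46 on the log2 scale at 50 %, and in the same direction 0.18 at 80 % and 0.20 at 30 %. For 84.6 % of them the direction was the same at all 3 water levels, and 0 passed the test of the difference to 80 % SWCg. Another 642 genes were called at both other levels but not at 50 %.

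A pair of neighbours on chromosome 7 held the only opposite calls. Potri.007G062302 (7081089 to 7083727) had 25.6, 19.1 and 24.9 CPM in EE50 and 30.5, 32.0 and 31.2 CPM in LM50, a log2 fold change of −0.43 ± 0.12 (adjusted p = 0.00629), while at 80 % SWCg it was 0.44 (adjusted p = 0.00464). Potri.007G062242 (7072815 to 7074818) had 32.4, 26.5 and 24.8 CPM in EE50 and 38.4, 33.8 and 35.4 CPM in LM50, a log2 fold change of −0.36 ± 0.11 (adjusted p = 0.00839), with 0.26 at 80 % SWCg (adjusted p = 0.0425). The call of Potri.007G062242 at 50 % was lost without EE50 C (adjusted p = 0.0513) and without scaling beyond library size (adjusted p = 0.0937). At 30 % SWCg both were near 0, at −0.03 and 0.01. The difference between 50 and 80 % had an adjusted p of 0.984 for each in the main test, and for Potri.007G062302 DESeq2 gave 0.042 and the likelihood ratio test 0.0101. Both have a single exon block on the same strand.

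Other genes with the smallest p in the differences show the sizes that did not pass the main test. The fitted changes of Potri.004G223300 were 0.49 at 50 % and 3.16 at 80 % SWCg on the log2 scale, a difference of −2.67 ± 0.50 (SE). This gene was near the floor, with 0.187, 0.188 and 0.266 CPM in LM80 and 1.44, 2.32 and 1.91 CPM in EE80. Its libraries at 50 % SWCg held 8 to 22 counts. Potri.019G063800 rose by 2.73 at 50 %, 1.93 at 80 % and 2.53 at 30 % SWCg. Potri.016G065900, which overlaps an exon on the other strand, had log2 fold changes of −2.23 at 50 % and −1.61 at 80 % SWCg, and Potri.010G251800, first among the largest falls above 10 CPM, had −8.14 and −6.45. Against 30 % SWCg, Potri.010G046800 had 0.05 at 50 % and −0.57 at 30 % SWCg, and Potri.006G104800 had 1.26 and 0.34. Each of these differences had an adjusted p of 0.984 against 80 % or 0.895 against 30 % SWCg in the quasi-likelihood test. DESeq2 called Potri.016G065900 (adjusted p = 0.042) and the likelihood ratio test called Potri.010G251800 (adjusted p = 0.00632) and Potri.004G223300 (adjusted p = 0.0104).

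Gene structure went with the direction of change. An exon block is a stretch of merged exons in the annotation behind the counts. Of the genes with 1 exon block 25.0 % were higher and 26.5 % lower in EE50, and of those with over 10 blocks 34.8 % were higher and 21.3 % lower. The share of DEGs that were higher climbed through 48.5, 50.2, 52.6, 58.2 and 62.0 % for genes with 1, 2 to 3, 4 to 6, 7 to 10 and over 10 blocks. The climb was also present within each class of abundance, but for a dip at 2 to 3 blocks in the lowest. Over 10 blocks gave 81.7, 77.5 and 48.9 % for low, middle and high abundance, and 1 block gave 60.8, 45.9 and 33.0 %. With DESeq2 size factors the ends of the scale were 45.1 and 56.5 %, and without scaling beyond library size 58.0 and 75.2 %. The part of transcript length, RNA quality or annotation in this was not tested.

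Genes with the strongest changes had fewer exon blocks. The median number of exon blocks was 3 for the 943 genes with a log2 fold change above 2 and for the 613 below −2, beside 5 over all genes tested. A single block was found in 29.6 % and 27.1 % of these genes, beside 14.8 % of all. Abundance moved with this: the median CPM was 5.52 for the genes above 2 and 16.1 for those below −2, beside 16.7 over all, and 1805 of the 7900 least abundant genes had a single block, beside 3513 of all 23700. Its part in the result was not tested.

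Neighbouring genes tended to move together. Of 6842 adjacent pairs in which both genes were called, 58.8 % had 1 direction, and the value was 58.7 % among pairs with no exon overlap in either gene. It was 54.5 % for genes 2 places apart, 50.9 % at 5 places and 49.9 % at 100 places. Adjacent genes on the same strand shared a direction in 61.1 % of pairs, genes with facing starts in 59.9 % and genes with facing ends in 52.2 %. Chromosomes also differed somewhat, from 24.4 % of genes higher in EE50 on chromosome 3 to 32.0 % on chromosome 13. Chromosome 17 was the one on which more genes were lower (29.0 %) than higher (24.5 %).

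**Figure D5:**
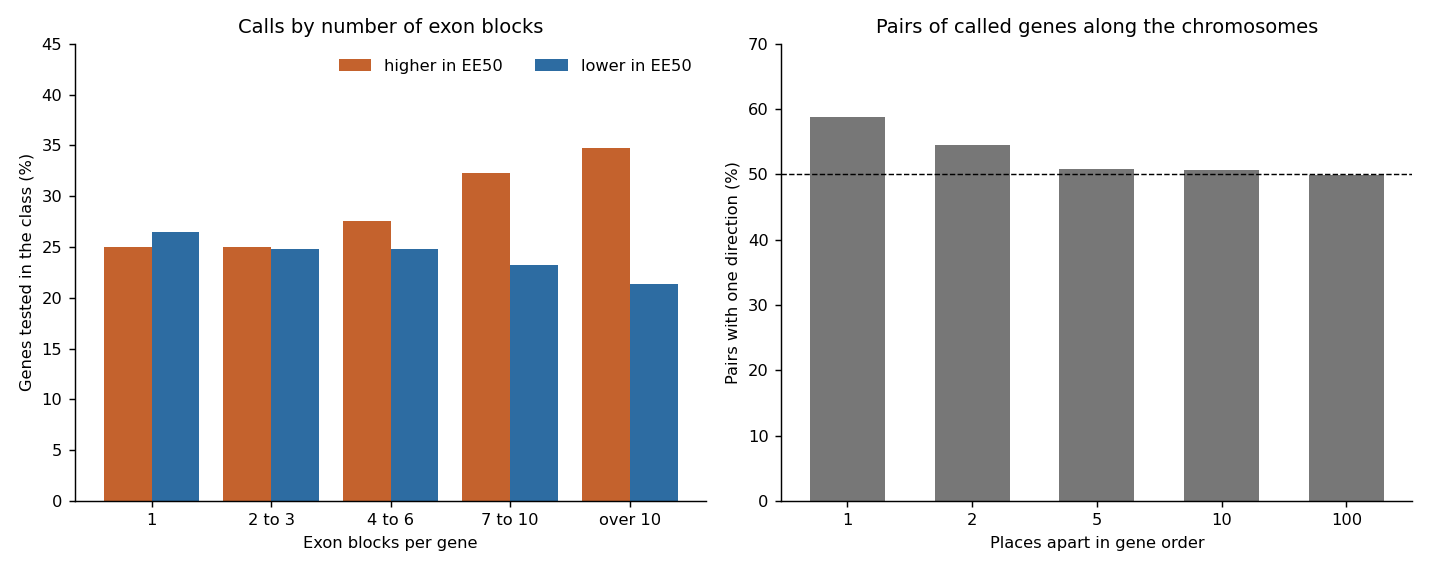
Left, the percentage of genes tested that were higher or lower in EE50, by the number of exon blocks. Right, the percentage of pairs of DEGs with 1 direction, by their distance in gene order, with a dashed line at 50 %. The share of higher genes climbs with exon blocks, and the pairs approach 50 % from 5 places on.

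Strong changes were at times shared by runs of adjacent genes. In 20 runs of at least 3 adjacent tested genes, every gene had a log2 fold change beyond 2 in 1 direction, 13 of them higher and 7 lower in EE50, with 69 genes in all. The runs named next were chosen after their values were seen. On chromosome 14, from 11382535 to 11416023, Potri.014G159700, Potri.014G159800 and Potri.014G159900 each have 9 exon blocks and rose by 2.50, 7.04 and 6.39. Their evening levels spanned 3 orders of magnitude, with 0.89, 1198 and 40.3 CPM in EE50 and 0.157, 9.32 and 0.5 CPM in LM50.

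On chromosome 17, from 14194874 to 14235590, Potri.017G141600, Potri.017G141800 and Potri.017G141950 rose by 4.43, 5.75 and 6.65, with 62.7, 8.37 and 17.9 CPM in EE50 and 2.98, 0.14 and 0.178 CPM in LM50. On chromosome 15, from 13938107 to 13952867, Potri.015G128100, Potri.015G128200 and Potri.015G128300 rose by 5.11, 5.02 and 2.53, and each has a single exon block. Potri.015G128200 held most of the transcript of this run, with 287, 266 and 327 CPM in EE50 and 6.86, 7.82 and 12.6 CPM in LM50.

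Among the runs that fell, Potri.008G157750, Potri.008G157900, Potri.008G158000 and Potri.008G158200 lie between 10817793 and 10838207 on chromosome 8. They averaged 20.1, 9.71, 43.4 and 43.3 CPM in EE50 and 148, 69.3, 354 and 424 CPM in LM50, with log2 fold changes of −3.29 to −2.84. EE50 B was the lowest evening library for all but Potri.008G157900. Exons of Potri.008G158000 and Potri.008G158200 overlap on the same strand, and reads in the overlap were left out. On chromosome 1 a run of 6 genes from Potri.001G063300 to Potri.001G064900 rose, each by 2.15 or more.

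Of the 69 genes in runs, 67 were called in the same direction at 80 % SWCg (97.1 %) and 66 at 30 % SWCg (95.7 %). At these levels 51.8 % and 53.4 % of all genes were called in either direction. The shares in runs were near those of all genes with changes of such size. These were 96.7 % and 95.2 % for genes above 2, and 97.1 % and 95.9 % for genes below −2. Potri.002G025300 and Potri.015G128300 were called at neither level and Potri.014G037400 was not called at 30 %. At 30 % SWCg the fitted change of Potri.015G128300 was −0.62 (adjusted p = 0.502, edgeR). Where neighbours are close copies of one another, reads that fit several of them were left out or may have been assigned to the wrong copy, so the values of single genes within a run are less certain than the direction of the run.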

How the data were processed

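For the RNA-seq libraries of poplar leaves, the authors trimmed reads with Trimmomatic (version: not given in the sources used here). HISAT2 2.2.1 placed the reads on P. trichocarpa v4.1, SAMtools 1.3.1 wrote BAM files, and featureCounts 2.0.1 assigned them to genes. The header of the table names no option for strand or for reads with several places, so such reads, and those over exons of 2 genes, were left out and strand was ignored. The deposited values are raw counts per gene, with no normalization.

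From these counts, edgeR 4.0.16 (R 4.3.3) was fitted to all 18 libraries in 6 groups, with TMM factors and the quasi-likelihood test, keeping genes whose average log2 CPM lay over −2 and under 9. P-values were adjusted over all genes tested (Benjamini–Hochberg), with calls below 0.05. The SE of a log2 fold change is its size divided by the square root of the F value of the test. Such an SE, and the interval made from it, is approximate and likely too small where a group has few counts. CPM values use TMM library sizes. Log2 CPM for the principal components had a prior count of 2. Tables and figures were made with Python 3.11.15, pandas 2.3.3 and matplotlib 3.10.9, and the test was tested on simulated data.

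Genes were named by rule: the 10 largest rises and falls among DEGs without overlap of groups and with at least 10 CPM, the 13 clock genes, the 5 smallest p in each direction of each difference, the 5 most abundant DEGs beyond a log2 fold change of 1 in each direction, and the 5 steadiest genes. Genes above the upper limit, genes at the floor of 3 counts and runs of neighbours were added after seeing values. Members and lists were chosen with earlier results of these data known. Gene lists by description, tissue markers, sequences and promoter motifs were not analysed here. Alternatives were the 6 libraries alone, leaving out each library, a replicate block, the lower limit only, filterByExpr, no filter, DESeq2 1.42.0 or its size factors alone, and edgeR's likelihood ratio test on robust dispersions. A fit without scaling beyond library size was added after seeing the data.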

Additional observations from a re-analysis of the deposited data

How the results depend on the processing

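Over the alternatives, the number of genes higher in EE50 stayed between 5983 and 8759 and that of lower genes between 4369 and 6404, each within 1.5 times the counts of 6821 and 5718. Leaving out 1 library at a time gave 5983 to 6364 higher and 5074 to 5304 lower genes. For the difference between 50 and 80 % SWCg, DESeq2 called 2 genes and the likelihood ratio test with robust dispersion 11, against 0 in the quasi-likelihood test. The cause was not tested. The 2 genes of DESeq2 were Potri.007G062302 and Potri.016G065900. The difference between 50 and 30 % SWCg gave 0 genes under every alternative run. Libraries of 1 letter did not deviate together at 50 % SWCg (correlations of −0.0029, −0.016 and −0.025 across genes, none highest with its own letter). At 80 % SWCg the correlations were 0.059 to 0.301 and at 30 % SWCg 0.0836 to 0.209, and 3 of these 6 were highest with their own letter. Not every pair exceeded 0.1 at any water level, so the letters were not taken to pair the libraries. Letters were not compared across water levels within a time of day. In some genes, such as Potri.003G167500 in the early evening, library A was the highest at all 3 levels. A replicate block gave 7036 higher and 5880 lower genes and 0 calls in both differences. With this block the smallest adjusted p was 0.294 against 80 % and 0.698 against 30 % SWCg (edgeR, quasi-likelihood). Without it these were 0.984 and 0.895. DESeq2 size factors gave 14885 genes without overlap of groups, against 14881. Of 41 genes named for size of change, clock role or abundance, the PRR9 gene Potri.002G179800 alone lost its call under some alternative, and no called gene reversed. Of the genes named for the differences, 3 lost their time-of-day call under at least 1 alternative: Potri.007G062242, Potri.009G133500 and Potri.015G127900. Under every alternative 9 clock genes were higher, and 3 or 4 were lower. Alternatives for lists by description were not run. Depth limits genes near the floor of 3 counts, whose fitted fold changes depend on the prior count.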
